A study of Rattus norvegicus with 15 samples.

Results

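Cml3 and TC547717 on chromosome 4, and RGD1308377 and A_44_P560113 on chromosome 17, are array probes whose signal in rat olfactory epithelium stood at one level in rats 1 to 4 and at a higher level in rats 5 to 8. They were selected on exactly that difference, so their own differences between the sets are given here as descriptions with no test, and the question tested was whether the genes around them on the chromosome shifted too. By gene name the 4 members correspond to 5 of the 41012 probes on the array, because RGD1308377 has 2 probes. The other probes lying within 500 kb of a member probe were taken as its neighbors, 33 on chromosome 4 and 27 on chromosome 17. Signals came from 15 one-color arrays of Brown Norway rats aged 6 weeks. Rats 1 to 4 (2 males and 2 females, 7 arrays) and rats 5 to 8 (2 males and 2 females, 8 arrays) carried no treatment or engineered allele in the labels. Each nostril was hybridized to its own array, except that rat 1 had nostril A only. The series' design text says that the animals came from a pair of suppliers, but no label ties a rat to one of them, so the sets are called here by rat number alone.

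The sets also differ in slide. The 7 arrays of rats 1 to 4 lay on slides 1 and 2 and the 8 arrays of rats 5 to 8 on slides 3 and 4, so set and slide cannot be told apart. Between 27110 and 28741 probes were well above background on the arrays of rats 1 to 4 and between 26233 and 28404 on those of rats 5 to 8, with array medians of 68.1 to 83.4 and 57.4 to 74.2 intensity units. The labelled tissue was borne out by its markers. All 7 probes for olfactory neuron genes (Omp, Gnal, Cnga2, Adcy3, Cnga4) were tested, and the signal summed over them, in multiples of the array median, was 1176 to 1385 in rats 1 to 4 and 1222 to 1439 in rats 5 to 8. The 6 sustentacular cell probes gave 6492 to 7383 against 6342 to 7189.

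Cml3 and Cml5, named camello-like 3 and 5 in the array annotation, belong with Nat8 to the camello family, enzymes of the endoplasmic reticulum membrane that transfer acetyl groups to amino groups. Nat8 itself acetylates cysteine conjugates in the last step of mercapturic acid formation, a route by which cells make reactive foreign compounds soluble, and the olfactory epithelium is known for its high content of enzymes that handle inhaled compounds. In rodents the camello genes form a tandem cluster, in which members arose by duplication. RGD1308377 is listed in the RefSeq annotation of build GRCr8 under the symbol Mfsd14b, a membrane protein of the major facilitator superfamily of transporters, known earlier as hippocampus abundant transcript-like 1. TC547717 and A_44_P560113 have no gene description in the array annotation.

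The 60-base probe sequences are shown because camello genes are near copies of each other, and a probe that matched several of them would report their sum. The capitals mark the longest run of bases that each probe shares, on either strand, with any other probe of the array, whatever its gene. Positions are those of the array annotation, build rn3. The first 5 sequences are the members and the last 2 are the neighbors with the lowest adjusted p-value at each locus.
Cml3, chr4:120209196-120209255, minus strand: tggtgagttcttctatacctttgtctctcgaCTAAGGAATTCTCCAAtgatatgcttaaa
TC547717, chr4:120207662-120207721, minus strand: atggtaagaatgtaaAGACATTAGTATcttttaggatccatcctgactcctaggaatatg
RGD1308377, probe A_44_P210809, chr17:5599469-5599528, plus strand: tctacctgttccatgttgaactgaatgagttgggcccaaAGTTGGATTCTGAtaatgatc
RGD1308377, probe A_44_P636077, chr17:5601113-5601172, plus strand: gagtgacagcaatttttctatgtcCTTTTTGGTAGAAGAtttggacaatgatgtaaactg
A_44_P560113, chr17:5536171-5536230, minus strand: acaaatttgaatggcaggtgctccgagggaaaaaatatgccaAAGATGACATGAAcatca
Cml5, chr4:120225779-120225838, minus strand: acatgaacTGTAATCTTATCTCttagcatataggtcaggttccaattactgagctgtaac
XM_225097, chr17:5530792-5530922, plus strand: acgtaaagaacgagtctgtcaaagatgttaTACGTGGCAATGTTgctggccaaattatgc

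The longest shared run was 12 to 16 bases among these 7 probes. It was 16 bases for Cml3, and the partner was LOC259245 on the opposite strand, not a camello probe. Between the Cml3 and Cml5 probes themselves the longest common run was 7 bases. These runs compare probes with probes only, and whether a probe also matches the transcript of another camello gene was not tested. The probes of Cml3 and TC547717 lie on the same strand with 1474 bases between them and share no run over 6 bases. The 2 RGD1308377 probes are 1584 bases apart on the same strand. A_44_P560113 lies 63.2 kb from the nearer of them on the opposite strand. Exons, introns and untranslated regions are not given in the array annotation and were not analysed here.

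All 5 member probes were well above background on 15 of 15 arrays. Levels are the log2 of a probe's signal over the median of its array, with the nostrils of a rat averaged. Levels of different probes are not set against each other, since probes differ in brightness for the same amount of RNA.

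The Cml3 level was 4.58 in rat 1, 4.62 in rat 2, 4.03 in rat 3 and 3.81 in rat 4. It was 5.06 in rat 5, 5.30 in rat 6, 5.27 in rat 7 and 5.14 in rat 8. Every rat of the second set was above every rat of the first, and the first set was the more spread: 4.26 ± 0.40 (SD, n = 4) against 5.19 ± 0.11 (SD, n = 4). The difference, rats 5 to 8 minus rats 1 to 4, was 0.93 (SE 0.17), a 1.91-fold higher signal. Single arrays were 3.75 to 4.73 in rats 1 to 4 and 5.05 to 5.32 in rats 5 to 8, so the nostrils did not overlap between the sets either.

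The TC547717 level was -0.01, -0.09, -0.54 and -0.92 in rats 1, 2, 3 and 4. It was 0.59, 0.90, 0.83 and 0.65 in rats 5, 6, 7 and 8. Rats 3 and 4 were again the lowest and rat 6 again the highest, as for Cml3, and the sets did not overlap. The difference was 1.13 (SE 0.19), or 2.19-fold. TC547717 was a dim probe, with 42.0 to 125 intensity units where signals down to at most 14.5 units were still called above background on each array, and its difference was 0.62 when normexp background correction replaced the scanner's.

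The first RGD1308377 probe, A_44_P210809, gave 1.41, 1.49, 1.44 and 1.47 in rats 1 to 4. It gave 2.50, 2.57, 2.68 and 2.55 in rats 5 to 8. Within each set the rats were tightly grouped, at 1.45 ± 0.04 and 2.58 ± 0.08 (SD, n = 4 each), and the gap between the sets was far wider than either spread. The difference was 1.13 (SE 0.07), or 2.18-fold.

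The second RGD1308377 probe, A_44_P636077, gave 1.47, 1.54, 1.82 and 1.87 in rats 1 to 4. It gave 2.32, 2.40, 2.81 and 2.71 in rats 5 to 8. The sets did not overlap, but the spread within each was larger than for the first probe of the same gene, and in both sets the 2 females were above the 2 males. The difference was 0.89 (SE 0.13), or 1.85-fold.

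A_44_P560113 gave 0.72, 0.60, 0.59 and 0.53 in rats 1 to 4. It gave 1.95, 1.95, 1.95 and 1.93 in rats 5 to 8. The second set varied by 0.03 from lowest to highest rat, the least of the 5 member probes in either set. The difference was the largest of the members in the main setting, 1.33 (SE 0.07), or 2.52-fold. With normexp background correction it was 0.94, below the 0.97 of A_44_P210809.

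**Figure D1:**
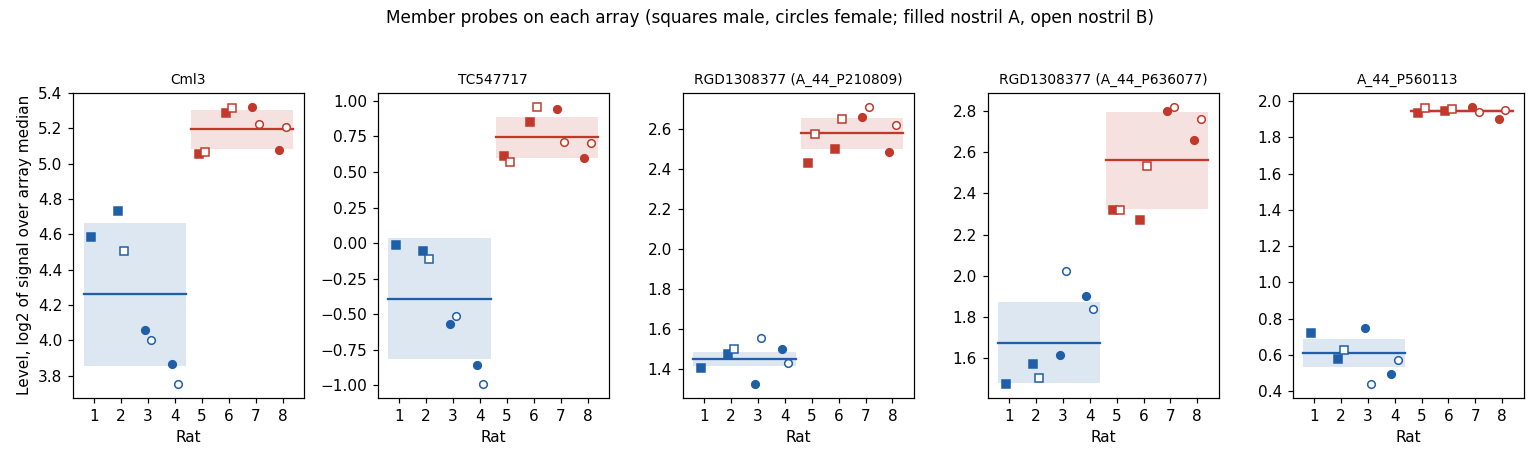
Level of the 5 member probes (log2 of signal over the array median) on each array, by rat. Lines are the means over 4 rats and bands are 1 SD of the rat means. In every panel all arrays of rats 5 to 8 (red) lie above all arrays of rats 1 to 4 (blue), and for Cml3 and TC547717 rats 3 and 4 lie below rats 1 and 2.

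Non-overlapping rats were common on this array, which sets the scale for the neighbors. Among the 27625 probes tested (those well above background on at least 7 arrays), the 4 rats of one set lay wholly above or below those of the other for 11.3%, and wholly above in rats 5 to 8 for 6.75%. All 5 member probes did not overlap, but this is what they were selected on. A difference of at least 1 log2 unit without overlap was rare, at 0.119% of tested probes, and 3 of the 5 member probes were in that share. By limma, 5 probes differed between the sets at a false discovery rate of 1%, which is 0.0181% of those tested, and 217 at 5%, which is 0.786%. An unadjusted p under 0.05 was reached by 19.1%. Member probes made up 2 of the 5, from which nothing is read since this contrast chose them, and the others were Dbp and Mss4, higher in rats 5 to 8, and Nppc, lower.

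Of the 44 tested neighbors at both loci 0 passed at 1% and 2 at 5%. At a false discovery rate of 1% limma called 0 of the 29 tested neighbors on chromosome 4 and 0 of the 15 on chromosome 17, and the methods' t-test, also adjusted after Benjamini-Hochberg, called 0 of the 44. At 5% limma called 1 of 29 (Cml5) and 1 of 15 (XM_225097), both higher in rats 5 to 8 and both near a member probe, against 0.786% of all probes. At an unadjusted p under 0.05 limma had 5 of 29 (17.2%) and 4 of 15 (26.7%), to be read against the 19.1% of all probes. The rats of the sets did not overlap for 4 of 29 neighbors (13.8%) and for 2 of 15 (13.3%), against the 11.3% of all probes. The median difference was 0.03 on chromosome 4 and -0.05 on chromosome 17, against 0.02 for all tested probes, and signs were mixed: 16 higher and 13 lower on chromosome 4, 6 higher and 9 lower on chromosome 17. The differences of the 44 ran from -0.50 to 0.63, with standard errors of 0.05 to 0.34. An absolute difference of at most 0.25 was found for 33 of the 44 and for 78.8% of all tested probes.

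**Figure D2:**
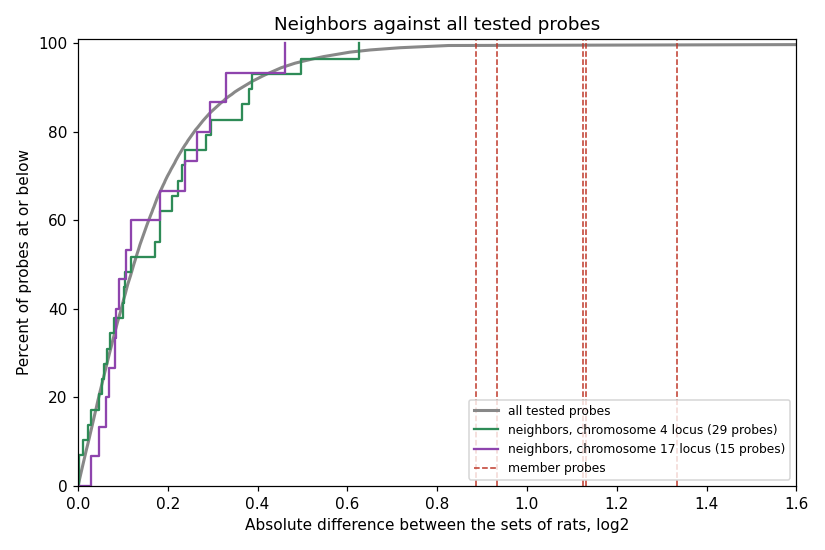
Cumulative percent of probes (vertical axis) by absolute log2 difference between rats 5 to 8 and rats 1 to 4 (horizontal axis), for all 27625 tested probes, the 29 tested neighbors on chromosome 4 and the 15 on chromosome 17. The curves of the neighbors run close to that of all probes and end at 0.63 and 0.46, to the left of the member probes (dashed lines, 0.89 to 1.33).

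On chromosome 4 the neighbor with the lowest adjusted p was Cml5, whose probe lies 16.5 kb from that of Cml3. The Cml5 level was 3.10, 3.01, 2.84 and 2.86 in rats 1 to 4. It was 3.43, 3.67, 3.73 and 3.48 in rats 5 to 8. The sets did not overlap, and the difference was 0.63 (SE 0.09, adjusted p = 0.0284 by limma), short of the 1% threshold and past 5%. Over 19 alternative settings that adjusted p ranged from 0.0161 to 0.125. The lowest came from single arrays with slide as a random block, where the nostrils of a rat counted as separate. With 1 rat left out the adjusted p was past 5% only when rat 2 or rat 5 was the one missing.

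Closest to the members on the other side is Alms1, a centrosome and ciliary base protein. Its probe A_44_P1014527, 16.4 kb from the members, gave 6.71, 6.70, 6.88 and 6.95 in rats 1 to 4 and 6.73, 6.81, 6.88 and 6.93 in rats 5 to 8. The ranges overlapped almost wholly, with a difference of 0.03 (SE 0.07, adjusted p = 0.860). The Alms1 probes at 22.7 kb and 42.1 kb differed by 0.10 (SE 0.06, adjusted p = 0.395) and 0.05 (SE 0.07, adjusted p = 0.731). Another Alms1 probe, A_44_P293817 at 77.8 kb, was lower in rats 5 to 8 by 0.37 on the log2 scale (difference -0.37, SE 0.14, adjusted p = 0.208), with overlapping rats. No Alms1 probe passed the test.

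The other camello genes of the cluster were measured as well. Cml2, 95.2 kb away and named Nat8f1 in RefSeq, gave 1.16, 1.10, 0.38 and 0.55 in rats 1 to 4 and 1.22, 1.09, 1.35 and 1.08 in rats 5 to 8. Rats 3 and 4 were the lowest, as for Cml3, while rats 1 and 2 lay among rats 5 to 8, and the difference of 0.39 (SE 0.17, adjusted p = 0.263) did not pass. Cml1, 118 kb away and named Nat8b in RefSeq, differed by 0.06 (SE 0.07, adjusted p = 0.657).

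Nat8 has a pair of probes under its name. A_43_P12275, 36.6 kb away, gave 1.03, 0.90, 1.82 and 1.63 in rats 1 to 4 and 1.10, 1.36, 1.32 and 1.17 in rats 5 to 8. Here rats 3 and 4 were the highest of all, opposite to Cml3, and the set difference was -0.11 (SE 0.19, adjusted p = 0.792). The other probe under that name, A_44_P594411 at 54.8 kb, is described as an endogenous retrovirus mRNA, so its gene is uncertain, and it differed by 0.17 (SE 0.16, adjusted p = 0.568). RGD1305719, on chromosome 14 and listed as Nat8l in RefSeq, differed by 0.10 (SE 0.13, adjusted p = 0.691). Of the 6 camello family probes other than Cml3, limma called 0 at 1% and 1 (Cml5) at 5%, where 0.786% of all probes were called, 1 had an unadjusted p under 0.05 (16.7%, against 19.1% of all probes), 5 were higher and 1 lower in rats 5 to 8, and the median difference was 0.14 against 0.02 for all probes.

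**Figure D3:**
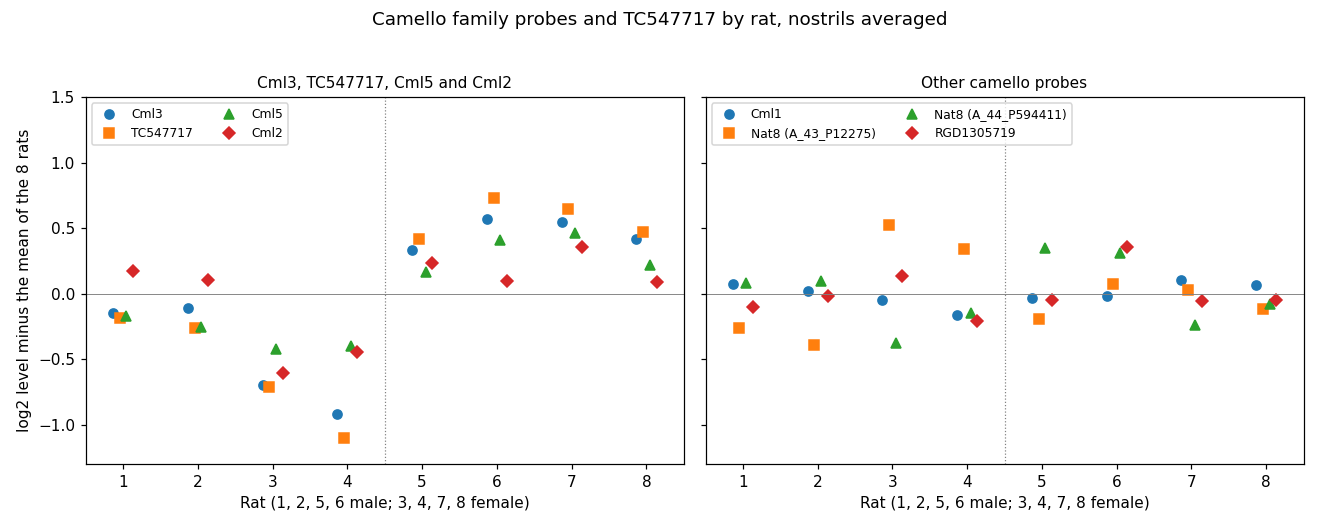
Log2 level minus the mean of the 8 rats, nostrils averaged, for Cml3, TC547717, Cml5 and Cml2 (left) and for the other camello family probes (right), by rat. Cml3, TC547717 and Cml5 are higher in all of rats 5 to 8, Cml2 is low in rats 3 and 4 only, and Nat8 (A_43_P12275) is highest in rats 3 and 4.

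Elsewhere in the chromosome 4 window the larger differences went both ways. The expressed sequence tag CB547822, 313 kb away, was lower in rats 5 to 8 without overlap, at -0.25, -0.40, -0.23 and -0.56 against 0.10, -0.19, 0.27 and 0.36 in rats 1 to 4 (difference -0.50, SE 0.14, adjusted p = 0.113). TC523402, beside it, was 3.81, 4.02, 3.48 and 3.31 in rats 5 to 8 and 3.78, 3.41, 4.45 and 4.49 in rats 1 to 4, overlapping (difference -0.38, SE 0.25, adjusted p = 0.422). TC556078, of unknown function at 84.6 kb, was higher without overlap by 0.23 (SE 0.07, adjusted p = 0.120). Its opposite strand is covered by another probe at the same position, BI294806, which differed by -0.28 (SE 0.18, adjusted p = 0.403) and overlapped between the sets. Cct7, a chaperonin subunit at 243 kb, was higher without overlap by 0.10 (SE 0.05, adjusted p = 0.308). None of these passed at 5%.

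By distance, the tested neighbors on chromosome 4 had a median difference of 0.05 within 50 kb (5 probes), 0.06 from 50 to 250 kb (13 probes) and -0.07 from 250 to 500 kb (11 probes). On the lower-coordinate side 15 tested neighbors ranged from -0.37 to 0.18, and on the higher-coordinate side 14 ranged from -0.50 to 0.63. At the edge of the window, Sfxn5 just inside (486 kb) differed by -0.0022 and AW142956 just outside (502 kb) by 0.15. On the other side BG670310 (473 kb) was detected on 0 arrays and RGD1304825 (582 kb) differed by -0.12.

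**Figure D4:**
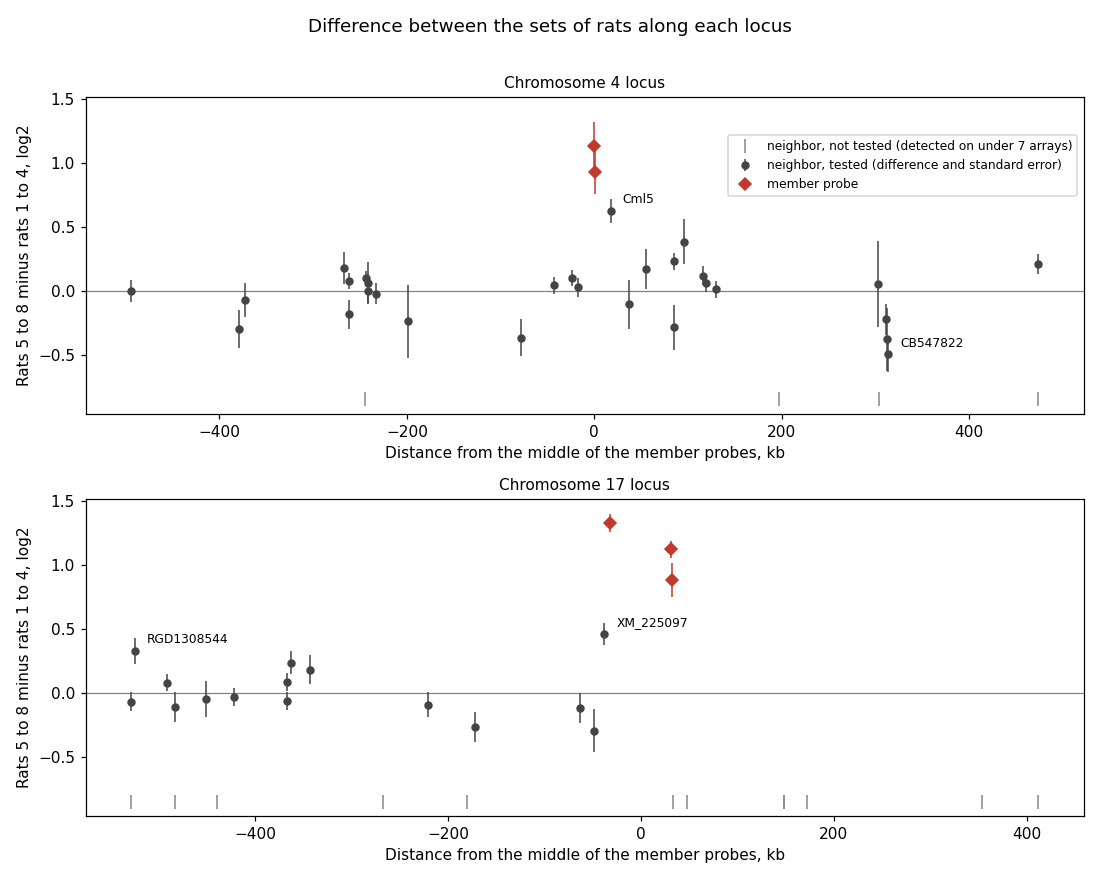
Log2 difference, rats 5 to 8 minus rats 1 to 4 (vertical axis, bars are standard errors), by distance in kb from the middle of the member probes (horizontal axis), for chromosome 4 (top) and chromosome 17 (bottom). Ticks at the bottom of each panel mark neighbors not tested. The members stand at 0.89 to 1.33, the tested neighbors scatter around 0 from -0.50 to 0.63, and no tested neighbor lies to the right of the members on chromosome 17.

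On chromosome 17 the probe nearest to A_44_P560113, 5.25 kb away, is XM_225097, described as similar to elongation factor 1-alpha, the protein that brings aminoacyl-tRNA to the ribosome. RefSeq places an elongation factor 1-alpha pseudogene, Eef1a1-ps6, a few genes before Mfsd14b, and copies of this gene are numerous, so the transcript behind this probe is uncertain. Its level was 2.20, 2.28, 2.37 and 2.46 in rats 1 to 4. It was 2.84, 2.79, 2.88 and 2.64 in rats 5 to 8. The sets did not overlap, and the difference was 0.46 (SE 0.08, adjusted p = 0.0455 by limma), past 5% but not 1%. Its adjusted p ranged from 0.0241 to 0.168 over 19 alternative settings, and with 1 rat left out it was past 5% only without rat 2.

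The next tested neighbors are a pair of olfactory receptor genes, receptors that bind odorants on the sensory neurons. Olr1653, 16.4 kb away (Or14p1 in RefSeq), gave 0.23, 0.84, 0.70 and 0.55 in rats 1 to 4 and 0.17, -0.07, 0.48 and 0.57 in rats 5 to 8. Olr1652, 30.9 kb away (Or9s18 in RefSeq), gave 2.12, 2.27, 2.22 and 1.86 in rats 1 to 4 and 1.84, 1.86, 2.20 and 2.09 in rats 5 to 8. Both overlapped between the sets, and their differences pointed away from those of the members, at -0.29 (SE 0.17, adjusted p = 0.369) and -0.12 (SE 0.12, adjusted p = 0.599).

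Of the remaining neighbors on chromosome 17, RGD1308544 (492 kb, Cfap90 in RefSeq, a cilia and flagella protein) was higher without overlap by 0.33 (SE 0.10, adjusted p = 0.144). XM_225086, similar to a zinc finger protein, differed by -0.27 (SE 0.11, adjusted p = 0.249) and the LOC680222 probe A_44_P869099 by 0.24 (SE 0.09, adjusted p = 0.186), both with overlapping rats. None of these passed at 5%.

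What lies next to RGD1308377 itself is hardly measured. All 7 neighbors on its higher-coordinate side were detected on fewer than 7 arrays, so 0 of them were tested, and the 15 tested neighbors lie on the lower-coordinate side. The nearest, the expressed sequence tag BI302702 at 0.75 kb, was well above background on 2 of 15 arrays (nostril A of rats 4 and 8). On the lower-coordinate side, positions depend on the build. Of 10 neighbors matched to RefSeq, 5 are placed on chromosome 17 in GRCr8 and 5 on chromosome 1. The latter are Adcy2, Mtrr and the genes now called Cfap90, Fastkd3 and Spry3-ps1. Of these 4 were tested, and all 5 lie at least 148 kb from the members in rn3. Of the 5 on chromosome 17 only Olr1652 and Olr1653 were tested. The other tested neighbors at this locus had no RefSeq match, so their place in GRCr8 is not known. The counts for the chromosome 17 neighbors therefore rest on rn3 positions. On chromosome 4, 18 of 33 neighbors matched and 18 of these are on chromosome 4 in GRCr8 too. At the lower edge of the chromosome 17 window AI556532 just inside (496 kb) and A_44_P651992 just outside (1044 kb) were each detected on 0 arrays, and at the upper edge RGD1563581 (379 kb) was detected on 0 arrays and Ccrk (622 kb) differed by -0.11.

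Outside its locus RGD1308377 has relatives among the transporters of the major facilitator superfamily. Of 14 probes listed for that family and related names, other than the 2 member probes, 11 were tested and limma called 0 at either 1% or 5%, 3 had an unadjusted p under 0.05 (27.3%, against 19.1% of all probes), 4 were higher and 7 lower, and the median difference was -0.04. Hiat1, the closest relative (Mfsd14a), differed by -0.04 (SE 0.12, adjusted p = 0.861) on one probe and by -0.05 (SE 0.07, adjusted p = 0.713) on the other. Of the 18 probes for the mercapturate pathway, in which Nat8 acts, 12 were tested, limma called 0 at 1% or 5%, 1 had an unadjusted p under 0.05 (8.33%, against the same 19.1%), and the median difference was 0.02. The 1 probe without overlap (8.33%, against 11.3% of all probes) was that of Gss, glutathione synthetase, with 0.13 (SE 0.06, adjusted p = 0.265). Dpep2, a dipeptidase, differed most, by 0.63 (SE 0.18, adjusted p = 0.124).

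Likeness across the 8 rats was measured as the root mean square difference between profiles centered on their own mean, over 27624 other tested probes. As the members were chosen for their step between the sets, this is a description. Cml3 and TC547717 were each the most alike to the other, at 0.11. Next for Cml3 came Gpha2, a glycoprotein hormone subunit on chromosome 1 (0.15), and BE110241 (0.16), and next for TC547717 came TC525909 (0.19) and BE110241 (0.19). For these the array gives no chromosome, except for Gpha2.

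On chromosome 17, A_44_P210809 was most like Dbp (0.08), then A_44_P560113 (0.13), then Per3 (0.17). A_44_P560113 was most like A_44_P210809 (0.13), then Dbp (0.17) and Per3 (0.18). The second RGD1308377 probe was most like AI012145 (0.17), Nr1d2 (0.17) and S63167 (0.18), while its fellow probe of the same gene ranked 10 in its list, at 0.20.

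Dbp, Per3 and Nr1d2 are genes of the circadian clock or its direct output, whose transcripts rise and fall over the day in most tissues. The list of clock genes, chosen with earlier results of these data known, had 8 probes of which 7 were tested: limma called 1 at 1% (0.0181% of all probes) and 5 at 5% (0.786% of all probes), and 6 were higher and 1 lower in rats 5 to 8, with a median difference of 0.89 against 0.02 for all probes. Dbp, a transcription factor, rose from 5.89, 6.00, 5.82 and 5.87 in rats 1 to 4 to 6.78, 6.99, 7.01 and 7.07 in rats 5 to 8, by 1.07 (SE 0.07, adjusted p = 0.000492). Per3, a period gene, had differences of 1.08 (SE 0.11, adjusted p = 0.0125) and 1.09 (SE 0.16, adjusted p = 0.0284) on its 2 tested probes.

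Arntl, the activator of the clock loop also called Bmal1, went the other way. It was 3.33, 3.52, 3.65 and 3.97 in rats 1 to 4 and 2.60, 2.51, 2.83 and 2.86 in rats 5 to 8, a difference of -0.91 (SE 0.14, adjusted p = 0.0284). Nr1d1, the nuclear receptor that represses Arntl, differed by 0.89 (SE 0.17, adjusted p = 0.0497). Per1 and Per2 overlapped between the sets, with differences of 0.27 (SE 0.22, adjusted p = 0.521) and 0.20 (SE 0.11, adjusted p = 0.357). The part in the members' difference of the clock genes that passed was not tested.

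**Figure D5:**
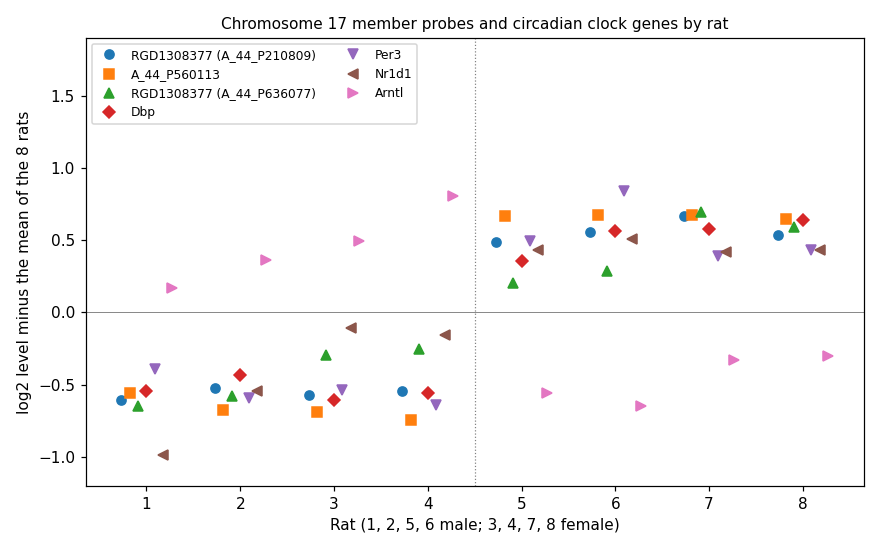
Log2 level minus the mean of the 8 rats, nostrils averaged, by rat, for the 3 chromosome 17 member probes and for Dbp, Per3 (A_44_P196198), Nr1d1 and Arntl. All but Arntl are below their mean in rats 1 to 4 and above it in rats 5 to 8, and Arntl is the reverse.

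Marker lists of other cell types were set beside the members. Bone genes (Bglap2, Ibsp, Dmp1, Phex and Col1a1, from the turbinate bone under the epithelium) were higher in rats 5 to 8 on 7 of 7 probes, with a median difference of 0.74. Their summed signal, in multiples of the array median, was 2234 to 4137 in rats 1 to 4 and 4099 to 6456 in rats 5 to 8, and 6 of 7 probes had an unadjusted p under 0.05, against 19.1% of all probes, while 0 passed 5% after adjustment. Summed blood genes were 114 to 842 against 93.5 to 1416, summed immune genes 207 to 235 against 232 to 346, and the skeletal muscle genes 1.08 to 1.81 against 1.43 to 4.57, with 3 of their 6 probes detected on fewer than 7 arrays (Acta1 and Ckm on 2 each). The 3 tested muscle probes were higher in rats 5 to 8, with a median difference of 0.62, 1 of them (Tnnt3, 1.36, adjusted p = 0.0916) without overlap, where 11.3% of all probes do not overlap. Of the 5 tested immune probes 2 were higher and 3 lower, with a median difference of -0.06. An unadjusted p under 0.05 by limma was reached by 2 of the 5 (Cd68 and Cd74, 40.0%, against 19.1% of all probes). Summed motile cilia genes were 492 to 600 against 533 to 614, with 4 of 4 tested probes higher, a median difference of 0.23 and 2 with an unadjusted p under 0.05, and immature neuron genes 1382 to 1606 against 1303 to 1589. The part of the bone, muscle, cilia and immune genes in the members' difference was not tested, and in whole epithelium fewer cells of a type and less RNA per cell cannot be told apart.

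Sex was a measure that the choice of the members did not use. With set as a covariate, limma called 0 of the 5 member probes between the sexes at 1%, against 0.167% of all probes, and 2 of 5 had an unadjusted p under 0.05, against 23.9%. The difference of female minus male was 0.37 for A_44_P636077 (SE 0.06, adjusted p = 0.0196), and the 2 females exceeded the 2 males in both sets, by 0.34 and 0.40. The other RGD1308377 probe differed by 0.04 (SE 0.06, adjusted p = 0.699), and the difference between the 2 probes was not tested.

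Slides separated the sexes almost wholly within each set, with rat 3 as the exception: its nostril A lay on slide 1 with the males and its nostril B on slide 2. On A_44_P636077 rat 3 gave 1.62 on slide 1 and 2.03 on slide 2, a gap of 0.41 that was close to the sex difference in size. Rat 3 also had the widest nostril gap among the 7 rats with both nostrils for A_44_P210809 (0.23), A_44_P560113 (0.31), Cml5 (0.40) and XM_225097 (0.43). The part of the slide in the sex difference of A_44_P636077 was not tested.

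For Cml3 the females stood below the males in rats 1 to 4 and level with them in rats 5 to 8. The males of the first set averaged 4.60 and the females 3.92, while in the second set they averaged 5.18 and 5.21. Ordered by level, the females of the first set were lowest, then its males, then both sexes of the second set, which differed by less than the spread between rats. Rat 3 gave 4.06 on slide 1 and 4.00 on slide 2, and the part of the slide was not tested.

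TC547717 had the same order in the first set, with males at -0.05 and females at -0.73, while in the second set they were at 0.75 and 0.74. In rat 3 its nostrils were -0.57 on slide 1 and -0.51 on slide 2. Cml2, a neighbor, had males at 1.13 and females at 0.47 in the first set and 1.16 and 1.21 in the second. An interaction of set and sex, added after the data were seen, was 0.71 for Cml3 (SE 0.15, adjusted p = 0.296), 0.67 for TC547717 (SE 0.24, adjusted p = 0.412) and 0.72 for Cml2 (SE 0.17, adjusted p = 0.307). Unadjusted, 2 of the 5 member probes were under 0.05, against 10.6% of all probes, and by limma 0 probes of the array (0.0%) passed at 1%, so a dependence on sex was not established for any of them.

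Nostrils gave no call. With rat as a block over the 7 rats with both, limma called 0 of the 5 member probes at 1%, against 0.0% of all probes, where 5.89% had an unadjusted p under 0.05. The differences of nostril B minus A ranged from -0.05 for Cml3 (SE 0.04, adjusted p = 0.835) to 0.10 for A_44_P210809 (SE 0.05, adjusted p = 0.781). The largest gap between the nostrils of 1 rat was 0.22 for Cml3 and 0.23 for TC547717 and for A_44_P210809. It was 0.31 for A_44_P560113 and 0.41 for A_44_P636077. Each gap was under the probe's step between the sets, and it came closest for A_44_P636077, with a step of 0.89.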

How the data were processed

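The authors labeled each RNA with Cy3, hybridized it to an Agilent 44K rat array and extracted the scans with Agilent Feature Extraction 9.5.1.1. The deposited intensity of a spot is background-subtracted and not scaled between arrays. The deposited ratio table holds, by comparison with the intensities, each signal over its array median and its probe median (100% of values within 2% over 19037 bright probes), and was used as an alternative.

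Outlier spots were left out, spots of a probe averaged, signals divided by the array median, floored at 0.1 of it, and log2 taken. Nostrils were averaged per rat. Sets were compared by limma 3.58.1 (lmFit, eBayes with trend) in R 4.3.3, two-sided, on 27625 probes well above background on at least 7 of 15 arrays, with Benjamini-Hochberg adjustment over all of them at 1%. The fit was tested on simulated data with noise drawn separately for each rat. The simulation had no slide effect, so it does not bear on set and slide coinciding here. Rats are separate animals, and their number, 4 a set, limits the precision. The sexes were compared with set as a covariate and the nostrils with rat as a block.

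The members, neighbors and gene lists were chosen with earlier results of these data known. Named are the members, other probes of their genes, per locus the neighbors passing 1%, the 5 tested neighbors with the largest differences and the 3 nearest tested, list probes passing 1% and the 3 most alike probes per member. Other genes named were picked after their values were seen. Probe positions are those of build rn3. Current gene names come from a RefSeq table of GRCr8, matched by accession, by symbol or by an older symbol. Mfsd14b, Cfap90, Fastkd3 and Spry3-ps1 were matched by an older symbol.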

Additional observations from a re-analysis of the deposited data

Results flagged for a closer look

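Among the members and tested neighbors, 98 groups of 4 rats were examined for a rat far from the others, and 2 were found, where chance gives about 1 in 20. Both were neighbors on chromosome 4. Dusp11, a phosphatase gene, was 3.32 in rat 4 on probe A_44_P1003072, where the other rats of its set were 3.49 to 3.53. TC556078 was 5.19 in rat 6, where the other rats of its set were 5.02 to 5.04.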

How the results depend on the processing

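With every alternative, 0 neighbors were called at 1% at either locus, including windows of 250 kb and 1 Mb. At 5%, 1 was called on chromosome 4 (Cml5, and 2 in the 1 Mb window) and 1 on chromosome 17 (XM_225097, also within 1 Mb). Non-overlapping neighbors on chromosome 4 went from 4 of 29 (13.8%) to 1 under normexp (5.86% of all probes there), 2 with nostril A only (8.50% of all probes there) and 7 of 56 (12.5%) in the 1 Mb window, and on chromosome 17 from 2 of 15 (13.3%) to 1 with nostril A only or of 5 in the 250 kb window, against 11.3% of all probes in the main setting. The members kept their direction in every alternative run, but normexp gave smaller differences, 0.62 for TC547717, 0.97 for A_44_P210809 and 0.94 for A_44_P560113. Over all probes, 5 calls became 0 with the deposited ratio table, 72 with slide as a random block on single arrays, 3 with nostril A only, 14 with sex as a covariate and 217 at 5%. The cause was not tested. The fit with slide as a random block had no term for rat, so the nostrils of a rat counted as separate. Calls of members between the sexes and the nostrils were 0 throughout. No paired analysis was possible because the sets share no rat number. Dim probes limit what could be tested: 16 of 60 neighbors were not.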
